A study of Mus musculus with 18 samples.

Results

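The miRNA repertoire of splenic B cells from wild-type mice was read on 3 one-colour arrays, labelled WT1, WT2 and WT3. They are 3 of 9 miRNA arrays in a series of 18 samples on the miR-17~92 cluster in mouse B cells, whose other arrays carry mRNA probes or RNA of the transgenic founder lines Tg9 and Tg79. No transgenic array entered any comparison here. The genotype label of the 3 samples is wild type; their protocol text also repeats the transgene of the series, miR-17~92 under the Eμ enhancer and immunoglobulin heavy-chain promoter, for every sample. Strain, age and sex were not used here. B cells were taken from spleen with magnetic beads (MACS), total RNA was isolated with Trizol, and the label was Cy5; the labels describe amplified RNA as the labelled material for these arrays too. Nothing in the labels says whether a sample is 1 mouse or a pool, so errors and p-values measure the spread between these 3 samples. All probes with a mature miRNA identifier were taken, which gave 1265 probes with 1 spot each.

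A miRNA is cut from a hairpin precursor, first by Drosha in the nucleus and then by Dicer in the cytoplasm, and the duplex that remains has a 5p arm and a 3p arm. As a rule 1 arm is loaded into an Argonaute protein and guides it to mRNAs that pair with the seed, bases 2 to 8 counted from the 5′ end, and the other arm is degraded. miRNAs with the same seed form a family with largely shared targets. In the mouse, resting mature B cells are known for miR-150, which restrains the transcription factor Myb, and for miRNAs common to blood cells such as miR-142; miR-155 is induced when B cells are activated, and the miR-17~92 cluster sustains early B cell development.

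The sequences below are those that the brightness results turn on. They come from RefSeq (GRCm38.p6), in which 1020 of the 1265 probes had a mature miRNA of the same name, and their seed is in capitals. The first set holds 3 of the brightest probes, with miR-3963, which resembles miR-3968 except at 4 of their 19 shared positions.
miR-5100: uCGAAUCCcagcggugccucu
miR-690: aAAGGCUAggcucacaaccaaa
miR-3968: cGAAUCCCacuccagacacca
miR-3963: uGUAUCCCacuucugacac
miR-5100 is encoded on the plus strand at chr11:60728698-60728718, within the span of Mief2, and miR-3968 on the minus strand at chr11:115447969-115447989, within the span of Trim80. miR-690 is encoded on the minus strand at chr16:28599940-28599961, within the span of Fgf12. The letters CGAAUCCCA stand in miR-5100 and miR-3968 and in no other of the 1020 matched miRNAs (0.196%); their first letter is the second base of miR-5100 and the first of miR-3968, so the seeds are the same run read 1 base apart. The shorter run AUCCCA stands in 4 matched miRNAs, these 2, miR-3963 and miR-191-5p. Letters were compared on the mature strand of matched miRNAs alone, so other RNAs that may carry them were not searched. Both runs were chosen after the levels were seen.

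The second set holds 3 probes that carry the letters UGGAGAGAUGGCUC, which stand in no other matched miRNA (0.294% of 1020). miR-3473a begins with the first letter of the run, so its seed differs from the seed that miR-3473e and miR-3473b share.
miR-3473e: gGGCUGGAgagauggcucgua
miR-3473b: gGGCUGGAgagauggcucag
miR-3473a: uGGAGAGAuggcucagca

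The third set shows families whose members differ by few bases outside the seed, or share the seed and little else. let-7f-5p and let-7a-5p differ at 1 of 22 positions. miR-16-5p and miR-195a-5p differ at 2 of their 21 shared positions, and miR-16-5p and miR-6353 at 7 of 22. miR-29a-3p and miR-29c-3p differ at 1 of 22 positions, and miR-17-5p and miR-106a-5p at 1 of 23.
let-7f-5p: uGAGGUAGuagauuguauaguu
let-7a-5p: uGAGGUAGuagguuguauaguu
let-7e-5p: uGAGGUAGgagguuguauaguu
miR-98-5p: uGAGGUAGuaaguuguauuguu
miR-16-5p: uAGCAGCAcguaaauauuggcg
miR-195a-5p: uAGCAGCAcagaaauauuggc
miR-6353: uAGCAGCAcguauuuauccuauu
miR-29a-3p: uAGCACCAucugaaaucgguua
miR-29b-3p: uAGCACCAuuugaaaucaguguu
miR-29c-3p: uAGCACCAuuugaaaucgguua
miR-17-5p: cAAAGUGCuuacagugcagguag
miR-20a-5p: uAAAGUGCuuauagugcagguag
miR-106a-5p: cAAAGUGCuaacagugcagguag

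The files give a spot median, the median pixel intensity of a spot. Levels below are log2 intensities after background correction and quantile normalization over the 3 arrays. A probe's brightness holds its own binding and labelling as well as the amount of its miRNA, so an order of brightness is not an order of abundance. Probes for near-identical miRNAs can share signal. Whether a bright probe also read RNA other than the miRNA it is named for was not tested. In bulk RNA, fewer cells with a miRNA and less of it per cell cannot be told apart.

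Most miRNA probes lay at the level of the negative controls. Each array holds 24 negative control spots, 8 for each of 3 controls, so they are not 24 separate controls. Negative Control 2 had the highest median spot of the 3, at 58.9, 50.8 and 70.4 on WT1, WT2 and WT3. The 95th percentile of the 24 spots, the limit used here, was a spot median of 61.0 on WT1, 53.4 on WT2 and 72.9 on WT3. Above it were 516 probes on WT1 (40.8%), 458 on WT2 (36.2%) and 444 on WT3 (35.1%). On all 3 arrays 402 of 1265 probes were above the limit (31.8%), 61 were above on 2 arrays, 90 on 1 array and 712 on none (56.3%). Without WT2, 433 probes were above on the other 2 arrays. The median level was 7.13 over the 402 probes and 5.97 over all 1265, and 62 probes reached a level of 10. At the edge, miR-301b-3p, just above the limit on all 3 arrays, had spot medians of 61.4, 62.4 and 73.1 on WT1, WT2 and WT3. miR-134-3p, miR-378a-5p and miR-691 were the next above it. miR-668-3p, just below, had 67.0, 55.0 and 72.9, and missed the limit on WT3 alone; miR-6337, miR-3093-3p and miR-5124a were next. Membership this close to the limit turns on differences of under 0.01 on the log2 scale.

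WT2 stood apart from WT1 and WT3. Over all miRNA probes, Pearson's r was 0.990 for WT1 with WT3, 0.979 for WT1 with WT2 and 0.978 for WT2 with WT3, a description across probes of arrays that share one probe set. Among the 402 probes the median absolute difference in level was 0.12 between WT1 and WT3, 0.31 between WT1 and WT2 and 0.28 between WT2 and WT3. WT2 was the highest of the arrays for 190 of the 402 probes (47.3%) and the lowest for 165 (41.0%). Later counts of probes highest or lowest on WT2 are to be read against these shares. By the number in the miRNA's name, a split made after the values were seen, WT2 minus the mean of WT1 and WT3 had a median of -0.17 over the 166 probes numbered 1000 or higher (49 higher, 116 lower). The same difference had a median of 0.21 over the 236 numbered under 1000 (165 higher, 71 lower). It also moved with the base composition of the miRNA: over the 318 probes with a RefSeq sequence Spearman's rho between GC content and that difference was -0.54, or -0.59 for the 191 numbered under 1000 and -0.22 for the 127 numbered 1000 or higher. Each array lies on its own slide, so slide and sample cannot be told apart, and the part of either in this pattern was not tested.

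**Figure D1:**
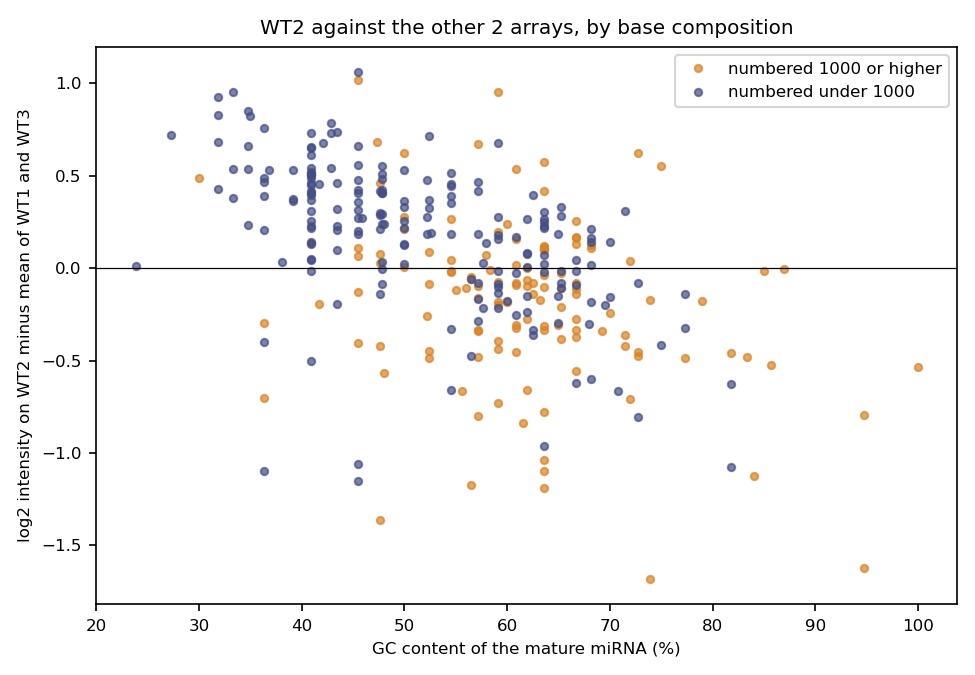
Each point is 1 of the 318 miRNA probes above the limit on all 3 arrays with a RefSeq sequence; the x axis is the GC content of the mature miRNA in percent and the y axis the log2 intensity on WT2 minus the mean of WT1 and WT3. Points at low GC content lie mostly above 0 and points at high GC content mostly below it, and probes numbered 1000 or higher (orange) and under 1000 (blue) overlap throughout.

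GC content also went with being above the limit. Of the matched probes, 16.4% of the 177 with a GC content under 40% were above on all 3 arrays, 27.1% of the 306 between 40% and 50%, 23.6% of the 335 between 50% and 60% and 62.9% of the 202 at 60% or more. The median GC content was 57.1% over the 318 probes above on all 3 arrays and 45.5% over the 579 above on none, and the median length was 22 bases in both. Among the 318 probes, rho between GC content and level was -0.11. The share above the limit was highest at high GC content, while the levels of the probes above it showed little relation to it.

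Signal was concentrated in few probes. The 10 probes brightest by mean level over the 3 arrays held 38.9%, 38.7% and 40.7% of the summed spot medians on WT1, WT2 and WT3. The 25 brightest by mean level held 56.4%, 55.5% and 60.4%. The brightest probe on each array was miR-5100, with 9.90%, 12.2% and 9.10%. Its spot medians were 43745, 46227 and 48493 on WT1, WT2 and WT3; its level of 15.49 has no spread because quantile normalization gives the top rank the same value on each array. miR-690 followed with a level of 14.61 ± 0.66 (SD, n = 3), at 14.99, 13.84 and 14.99 on WT1, WT2 and WT3, and miR-3968 with 14.55 ± 0.39, at 14.32, 14.99 and 14.32. These 3 were the only probes within 1 log2 unit of the top level. A shared rank on WT1 and WT3 gives equal levels in the same way. On these 2 arrays miR-690 had spot medians of 29100 and 46959, and miR-6240, also equal in level, 8350 and 14745. An SD of levels can thus be narrower than the spread of the spot medians.

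Of the 25 brightest probes, 18 are numbered 1000 or higher and 7 under 1000. Of all probes, 166 of the 451 numbered 1000 or higher (36.8%) and 236 of the 814 under 1000 were above the limit on all 3 arrays. The median level of those above was 7.26 in the late-numbered and 7.08 in the early-numbered group, closer together than the split among the 25 would show. After the first 3 the late-numbered probes were miR-6366 at 13.91 ± 0.39, miR-5097 at 13.50 ± 0.53, miR-6243 at 13.50 ± 0.38, miR-5109 at 13.40 ± 1.16 and miR-6240 at 13.08 ± 0.19. miR-5126, miR-1195, miR-2137, miR-3473e, miR-3473b and miR-3963 lay between 12.33 and 12.79, and miR-3960, miR-5105, miR-2861, miR-6412 and miR-5128 between 11.92 and 12.03. Of the 18 among the 25 with a RefSeq sequence, 10 had a GC content of 60% or more. So had 202 of all 1020 matched probes and 127 of the 318 matched probes above the limit on all 3 arrays. miR-5126 consists of G and C alone (100%).

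The 7 early-numbered probes among the 25 were 6 miRNAs known from blood cells or from most tissues, and miR-690. miR-150-5p, the miRNA of mature lymphocytes, was at 12.85, 13.42 and 12.68 on WT1, WT2 and WT3, a mean of 12.98 ± 0.39. miR-16-5p, which restrains the cell cycle and BCL2 and is lost with its host locus in human chronic lymphocytic leukaemia, was at 12.62, 13.56 and 12.38, a mean of 12.85 ± 0.62. miR-29a-3p, known for targeting collagens and DNA methyltransferases, was at 12.79, 13.19 and 12.29, a mean of 12.76 ± 0.45. All 3 were highest on WT2. let-7f-5p had 12.22 ± 0.42, miR-142-5p, a miRNA of all blood cell lineages, 11.95 ± 0.49, and miR-26a-5p 11.93 ± 0.29.

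The order among the 25 is loose. For 22 of the 24 pairs of neighbours the ranges over the 3 arrays overlapped; the exceptions were miR-5100 over miR-690 and miR-3968 over miR-6366. A place among the 25 brightest on all 3 arrays was held by 18 miRNAs, and on at least 1 array by 32. Of the 25, 12 were highest on WT2 and 10 lowest on it, near the shares over all 402 probes above the limit (47.3% and 41.0%).

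**Figure D2:**
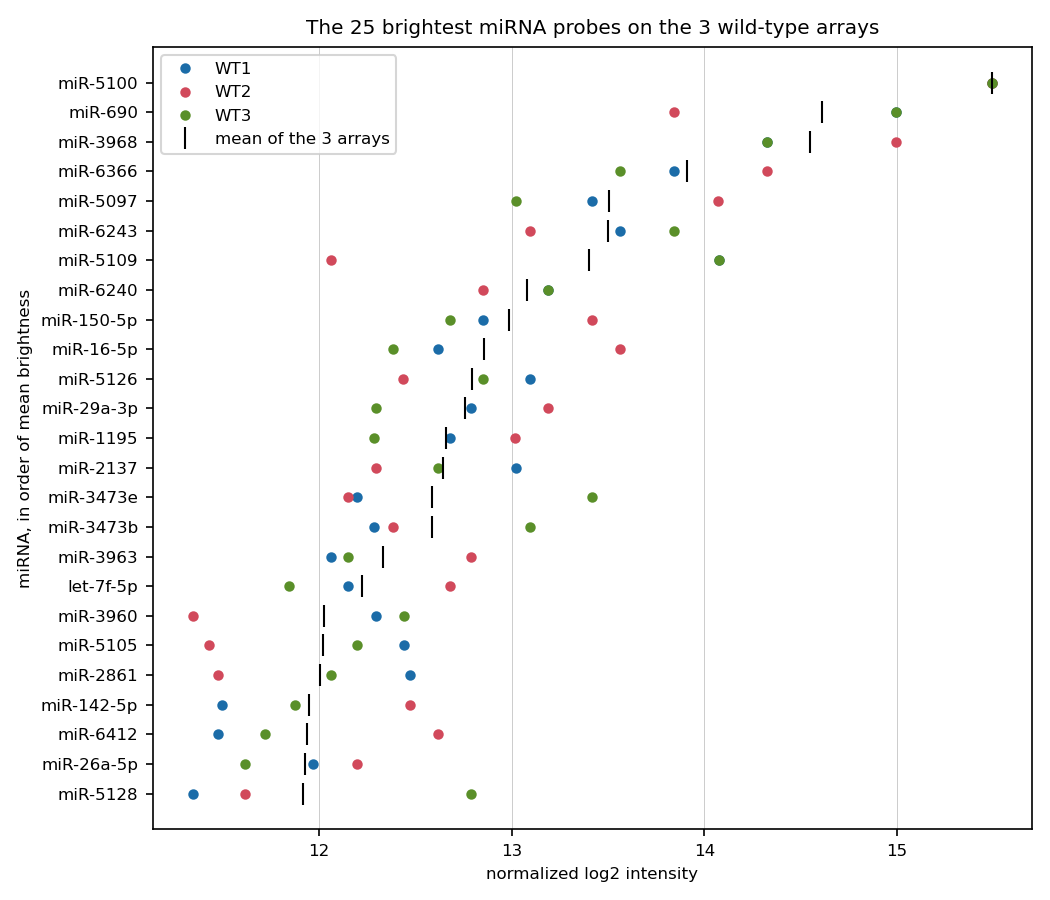
The 25 brightest miRNA probes from top to bottom by mean; points are the normalized log2 intensity on WT1, WT2 and WT3, the black tick is their mean, and equal values lie on top of each other. The points of neighbouring rows overlap for all pairs but miR-5100 with miR-690 and miR-3968 with miR-6366, and miR-5109 spans the widest range.

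Of 852 seeds on the arrays, 266 had a member above the limit on all 3 arrays and 9 had 3 or more. The let-7 seed GAGGUAG had the most, 10 of 11 (90.9%, against 31.8% of all probes). let-7 miRNAs rise as cells differentiate and repress growth genes such as Lin28 and Hmga2. let-7f-5p was the brightest, at 12.15, 12.68 and 11.84 on WT1, WT2 and WT3, and let-7a-5p followed at 11.84, 11.88 and 11.49. let-7d-5p (11.50 ± 0.29), let-7c-5p (11.22 ± 0.27), let-7g-5p (11.21 ± 0.47), let-7i-5p (10.46 ± 0.33) and let-7b-5p (10.42 ± 0.23) lay above 10. let-7e-5p was at 9.06 ± 0.49, miR-98-5p at 7.32 ± 0.53 and let-7k at 6.73 ± 0.11, and miR-1961, which has the same seed, was above the limit on no array (5.81 ± 0.05). All 10 members above the limit but let-7b-5p were highest on WT2. Of the 21 let-7 and miR-98 probes, which include the opposite arms and let-7j (7.63 ± 0.56), 11 were above on all 3 arrays; no 3p probe was.

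The miR-17 seed AAAGUGC was above the limit in 6 of 7 probes, which come from 3 clusters. These miRNAs promote growth and repress the cell death gene Bim. miR-17-5p was at 10.64, 10.92 and 10.74 on WT1, WT2 and WT3 and miR-20a-5p at 10.27, 10.63 and 10.27, both from the miR-17~92 cluster. From the miR-106a-363 cluster on the X chromosome, miR-106a-5p had 9.99 ± 0.25 and miR-20b-5p 9.80 ± 0.30. The miR-106b~25 cluster gave 9.87 ± 0.16 for miR-93-5p and 9.79 ± 0.32 for miR-106b-5p. Their mean levels lay within 1 log2 unit of each other, and miR-6383, with the same seed, was above on no array (5.85 ± 0.07).

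By cluster, 8 of 12 miR-17~92 probes were above the limit on all 3 arrays, 6 of 10 of miR-106a-363 and 4 of 6 of miR-106b~25. The mean over all 12 miR-17~92 probes was 7.72, 8.05 and 7.75 on WT1, WT2 and WT3. Besides the miR-17 seed, miR-17~92 showed miR-19b-3p, whose sequence is also made by the X-linked cluster and which is the chief oncogenic miRNA of the cluster in mouse B cell lymphoma, at 10.61 ± 0.23. It also showed miR-92a-3p, likewise made by both clusters, at 8.90 ± 0.11, miR-19a-3p at 7.98 ± 0.38, miR-18a-5p at 7.77 ± 0.43, miR-17-3p at 7.60 ± 0.27 and miR-20a-3p at 6.38 ± 0.14. miR-18a-3p and miR-19b-1-5p were above on 1 array, and miR-19a-5p and miR-92a-1-5p on none. The 2 paralog clusters added miR-25-3p at 9.27 ± 0.19 and miR-92a-2-5p at 7.57 ± 0.19; miR-18b-5p, miR-106b-3p and both arms of miR-363 lay between 6.26 and 6.98. The seed AUUGCAC, shared by miR-25 and miR-92, was above in 5 of 6 probes, with miR-92b-3p at 7.35 ± 0.15, miR-32-5p at 6.46 ± 0.26 and miR-363-3p at 6.26 ± 0.16; miR-367-3p of embryonic cells was above on none.

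The miR-15/16 seed AGCAGCA was above in 5 of 9 probes. These miRNAs repress cyclins and BCL2. Beside miR-16-5p, miR-15a-5p was at 10.37, 10.97 and 10.66 on WT1, WT2 and WT3 and miR-15b-5p at 10.41, 10.50 and 10.50. miR-195a-5p, 2 bases away from miR-16-5p over their shared length, was at 7.51 ± 0.42, and miR-322-5p at 6.65 ± 0.27. miR-6342 was above on 1 array and miR-6419, miR-6353 and miR-195b on none, with levels between 5.79 and 6.08. Members with one seed thus ran from the 10th brightest probe to the level of the controls. With the opposite arms and miR-497, the family list had 6 of 14 probes above.

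All 3 probes of the miR-29 seed AGCACCA were above: miR-29a-3p as given, miR-29b-3p at 11.43, 12.28 and 11.43 on WT1, WT2 and WT3, and miR-29c-3p at 9.85, 10.09 and 9.39. All 3 were highest on WT2, and the ranges of the 3 probes did not overlap. Of the seed GUAAACA 3 of 4 probes were above, miR-30c-5p at 10.96 ± 0.19, miR-30e-5p at 10.32 ± 0.31 and miR-30a-5p at 8.80 ± 0.39; miR-384-5p was above on none. miR-30b-5p (10.49 ± 0.21) and miR-30d-5p (9.93 ± 0.20) were also above, as were the opposite arms miR-30e-3p (7.41 ± 0.26) and miR-30a-3p (6.46 ± 0.16). In all 7 of 11 probes of miR-30, a family that represses Beclin 1 and Snai1, were above. Of the miR-181 seed ACAUUCA, 3 of 4 probes were above: miR-181a-5p, which tunes receptor signalling in developing T cells, at 8.60 ± 0.29, miR-181b-5p, which represses the antibody-diversifying enzyme AID, at 6.65 ± 0.16, and miR-181c-5p at 6.33 ± 0.13. The seed AGUGCAA of miR-130 and miR-301 had 3 of 7 probes above, with miR-301a-3p (7.21 ± 0.32) the brightest, then miR-130b-3p (6.90 ± 0.28) and miR-130a-3p (6.37 ± 0.22); miR-721, miR-6389, miR-130c and miR-6341 lay below. The seed UGGGAAG had all 3 of its probes above, miR-6368, miR-6405 and miR-6404, at 6.52 to 6.90 and all lowest on WT2.

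The other listed miRNAs ranged from bright to close to the limit. miR-191-5p had 11.17, 11.28 and 11.03 on WT1, WT2 and WT3. miR-146a-5p, a brake on NF-κB signalling through Traf6 and Irak1, had 11.03, 11.39 and 10.77, and miR-146b-5p 9.21 ± 0.39. miR-26b-5p was at 10.87 ± 0.29 and miR-21a-5p, raised in many lymphomas, at 10.86 ± 0.29. miR-155-5p was at 8.44, 8.59 and 8.27, with a mean of 8.43 ± 0.16, and miR-155-3p was above the limit on no array. miR-103-3p and miR-107-3p, related miRNAs that differ near the 3′ end, were at 9.38 ± 0.32 and 9.48 ± 0.17. The miR-23/27/24 list had 7 of 11 probes above, led by miR-24-3p (10.29 ± 0.56), miR-23a-3p (10.27 ± 0.13), miR-23b-3p (10.04 ± 0.29), miR-27a-3p (9.30 ± 0.21) and miR-27b-3p (8.83 ± 0.24). All 5 miR-378 probes were above, from miR-378a-3p at 8.57 ± 0.12 to miR-378a-5p at 6.25 ± 0.17. miR-221-3p had 7.01 ± 0.24, while miR-222-3p, with which it shares a precursor cluster, was above on 2 arrays. miR-148a-3p, which favours plasma cells and survival of B cells, had 7.57 ± 0.81, miR-148b-3p 6.72 ± 0.08 and miR-320-3p 6.59 ± 0.02.

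Other lists held few or no probes above the limit. None of the 11 probes of miR-34, which p53 induces, and miR-449, of ciliated cells, was above the limit on any array, and neither was any of the 10 of the miR-302 cluster of pluripotent cells. Of miR-199, a family of mesenchymal cells, none of 3 probes was above on all 3 arrays. Of the miR-125, miR-99 and miR-100 list, known from blood stem cells, 1 of 11 was: miR-125a-3p, at 8.45, 9.17 and 8.54 on WT1, WT2 and WT3, while miR-125a-5p was above on none (6.04). The cluster from miR-290 to miR-295 of embryonic stem cells had 2 of 14 probes above, miR-290-5p (6.43 ± 0.11) and miR-295-5p (6.31 ± 0.02). The miR-297, miR-466, miR-467 and miR-669 repeats had 9 of 71 above (12.7%), up to miR-466i-5p at 6.97 ± 0.32. Of the 9, 8 were lowest on WT2, against 41.0% of the 402 probes above the limit.

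The imprinted Dlk1-Dio3 region, a placental and neural group of miRNAs expressed from the maternal chromosome, was listed by RefSeq position, so it holds the probes with a RefSeq entry alone. Of those 108 probes 16 were above on all 3 arrays (14.8%, against 31.2% of all 1020 probes with an entry), and 81 were above on none. A probe of the region without an entry, miR-487b-3p, named after its values were seen, was above on all 3 arrays as well (6.83 ± 0.25). The brightest was miR-494-3p, at 10.66, 9.08 and 9.61 on WT1, WT2 and WT3, a mean of 9.78 ± 0.81. miR-3072-5p (9.53 ± 0.32) and miR-3072-3p (9.00 ± 0.26) followed, and the other 13 lay between 6.20 and 7.56. Of these 16, 9 were lowest on WT2 and 5 highest, against 41.0% and 47.3% of the 402 probes above the limit.

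**Figure D3:**
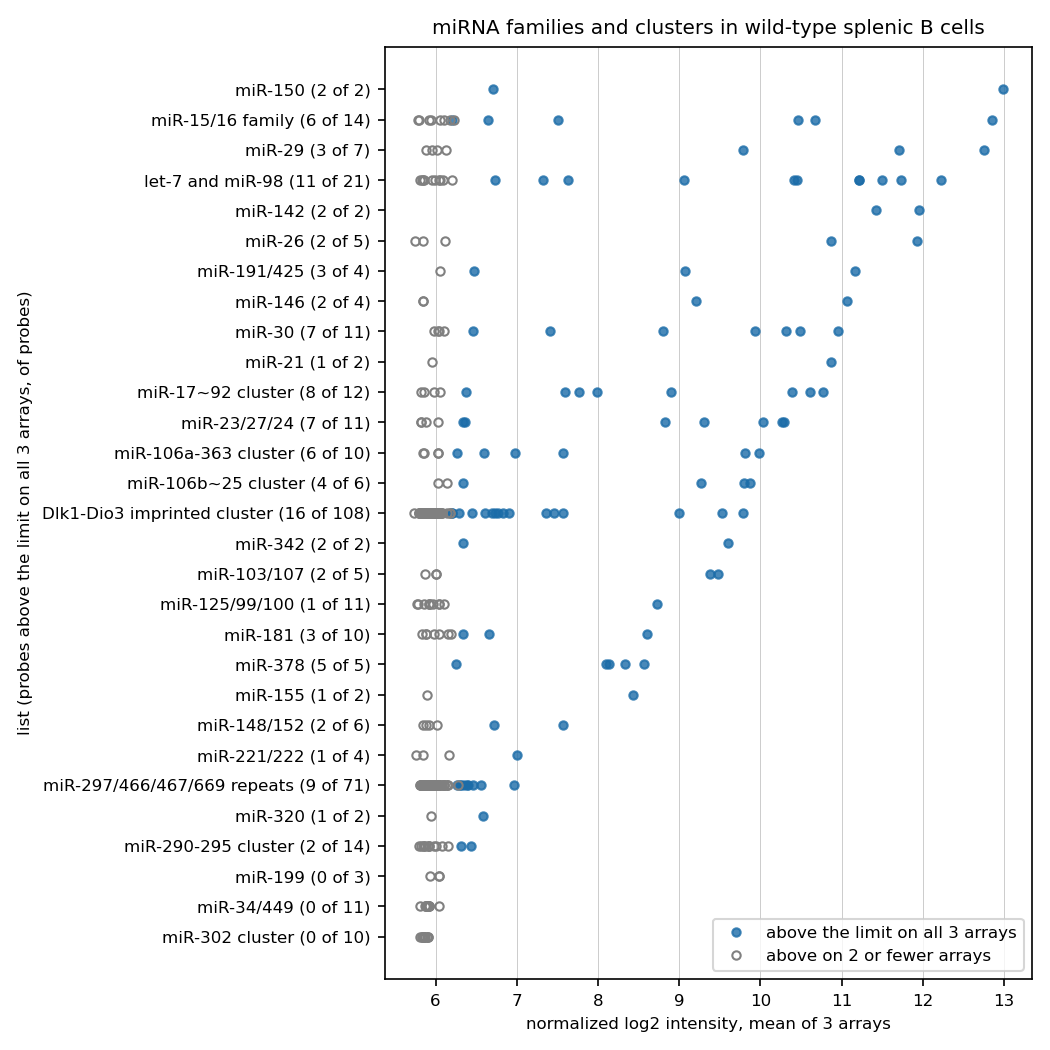
Each point is the mean normalized log2 intensity of 1 probe over the 3 arrays, by list, ordered by the brightest member; filled points were above the limit on all 3 arrays and open points on 2 or fewer. Most lists span from the level of the controls near 6 up to their brightest member, and the lists of miR-199, miR-34 with miR-449 and of miR-302 hold open points alone.

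The labelled cell type was set against marker miRNAs. All 9 lymphocyte markers were above the limit on all 3 arrays, against 402 of all 1265 probes (31.8%). Their median level was 11.43, and they ran from miR-150-5p at 12.98 to miR-181b-5p at 6.65. miR-142-3p was at 11.43 ± 0.50 and miR-342-3p, a miRNA of blood cells, at 9.60 ± 0.30. These miRNAs are shared by B and T cells, so they do not tell the 2 apart. Several, among them miR-16-5p, miR-29a-3p and both miR-142 arms, are also known from other blood cells or from most tissues. Their levels therefore do not set lymphocytes apart from such cells. The summed spot medians of the 9 were 27114, 32167 and 29681 on WT1, WT2 and WT3. Of these sums, miR-16-5p gave 6415, 7791 and 6385 and miR-29a-3p gave 6911, 6603 and 5940.

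Markers of other cells were dim, though some were above the limit on all 3 arrays, as were 31.8% of all 1265 probes. Of the myeloid pair, miR-223-3p had 7.70, 7.97 and 7.45 on WT1, WT2 and WT3, and miR-223-5p was above on none. Of 3 erythroid markers, miR-451a had 7.51 ± 0.43, with spot medians of 278, 115 and 171, and miR-486a-5p, read by a probe shared with miR-3107-5p, had 6.28 ± 0.05, while miR-144-3p, made with miR-451a, was above on none. Summed spot medians were 265, 230 and 251 for the 2 myeloid and 405, 220 and 306 for the 3 erythroid markers, on WT1, WT2 and WT3. Neither endothelial marker was above on all 3 arrays, though miR-126a-3p was on 2. Of 4 markers of smooth muscle and stroma, miR-214-3p (7.08 ± 0.18) and miR-143-3p (6.17 ± 0.03) were above on all 3 arrays. Of 7 epithelial markers, miR-200a-3p, miR-200b-3p, miR-200c-3p and miR-141-3p were, at 6.26 to 6.85. Of 4 neuronal ones, miR-128-3p (6.64 ± 0.17) and miR-219a-5p (6.16 ± 0.05) were; miR-124-3p and miR-9-5p were above on no array. No array was above the limit for the liver marker miR-122-5p, the 5 of muscle and heart, the 3 of pancreas or the 5 of embryonic stem cells. The pancreas marker miR-375 is its 3p arm (5.82 ± 0.08); the 5p arm, which is no marker here and was named after its values were seen, was above on all 3 arrays, at 8.42, 8.70 and 8.64. What share of cells or of RNA these levels stand for was not tested.

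**Figure D4:**
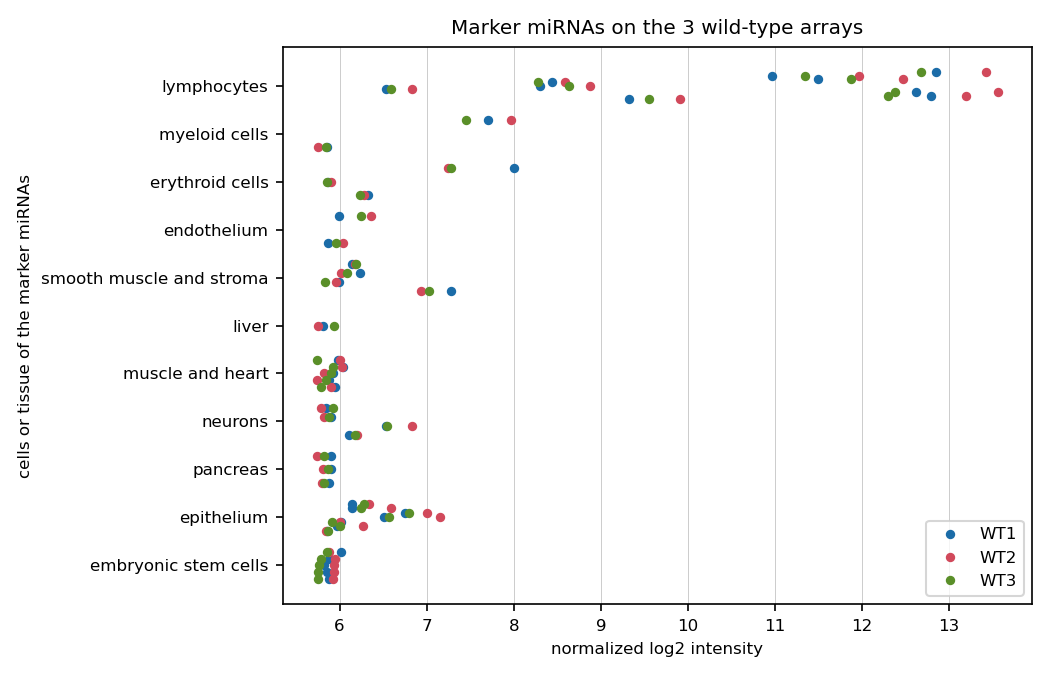
Marker miRNAs by cell or tissue; each row of points within a group is 1 miRNA, with its normalized log2 intensity on WT1, WT2 and WT3. The lymphocyte markers reach 12.98 in mean level, and those of every other group stay below 8 in mean level.

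Which arm of a hairpin was brighter was tested in the 62 hairpins, of 479 with a 5p and a 3p probe, in which both arms were above the limit on all 3 arrays. The within-array difference of 5p minus 3p was set against 0 with limma, two-sided, with Benjamini-Hochberg adjustment over the 62, and a hairpin was called where the adjusted p was under 0.05. The 5p arm was brighter in 26 hairpins (41.9%) and the 3p arm in 16 (25.8%), and 20 were not called. Of the 42 called, 35 differed by at least 2-fold and 14 by at least 8-fold, and without WT2 51 of 74 hairpins were called. With normexp on the deposited background column 1 hairpin was called, with 3p brighter, and 14 of the 20 differences named below turned sign. The 2 arms are read by different probes, so a call says that their brightness differed by more than the spread over arrays.

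The largest differences towards 5p included miRNAs of B cells. In miR-16-1, miR-16-5p was at 12.62, 13.56 and 12.38 and the 3p arm at 6.09, 6.28 and 6.22 on WT1, WT2 and WT3, a difference of 6.66 ± 0.25 (SE, n = 3; limma adjusted p = 6.99e-05). The 3p arm lay close to the limit, with spot medians of 62.0, 58.7 and 77.5, under the mean plus 2 SD of the controls on WT1 (62.3) and under the highest control on WT3 (79.3), so the size of the difference is uncertain; the authors' values gave 8.73. miR-16-5p is also made by miR-16-2, so its brightness belongs to both hairpins. In miR-150 the 5p arm was at 12.85, 13.42 and 12.68 and the 3p arm at 6.75, 6.70 and 6.69, a difference of 6.27 ± 0.18 (SE; limma adjusted p = 5.19e-05). The ranges of the arms were far apart in both. miR-328 (4.37), miR-20a (4.02), miR-106b (3.46), miR-17 (3.17), miR-3090 (3.03), miR-5621 (3.03), miR-30e (2.91) and miR-425 (2.59) made up the other 8 of the 10 largest. Of these, miR-5621 varied most, with 2.75, 1.74 and 4.61 on WT1, WT2 and WT3, and it was not called without WT2. miR-106b-3p, with a spot median of 75.7 on WT3, also lay under the highest control there, so the size in miR-106b is uncertain too.

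The largest differences towards 3p were in miR-3084 (-4.88), miR-3068 (-4.37), miR-24-2 (-3.95), miR-23a (-3.90), miR-3096b (-3.73) and miR-342 (-3.25). They were followed by miR-1843a (-2.42), miR-378a (-2.32), miR-1839 (-2.32) and miR-1843b (-2.27). miR-24-3p is also made by miR-24-1, so its brightness belongs to both hairpins. The 5p arm of miR-378a lay just above the limit on WT3, with a spot median of 73.3, so the size of its difference is uncertain. In miR-342, whose hairpin lies on the plus strand of chromosome 12 within the span of Evl, the 5p arm was at 6.19, 6.58 and 6.25 and the 3p arm at 9.32, 9.91 and 9.55 on WT1, WT2 and WT3. The difference was -3.25 ± 0.10 (SE; limma adjusted p = 5.19e-05). Its size is uncertain too, since the spot median of miR-342-5p on WT3, 78.9, lay under the highest control there (79.3). The 2 arms, at chr12:108658638-108658659 and chr12:108658680-108658702 (GRCm38.p6), are shown because they carry different seeds from 1 hairpin.
miR-342-5p: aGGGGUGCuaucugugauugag
miR-342-3p: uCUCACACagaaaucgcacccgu

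In some hairpins both arms were near each other. The arms of miR-142 were both bright, 5p at 11.49, 12.47 and 11.88 and 3p at 10.97, 11.96 and 11.35 on WT1, WT2 and WT3, with a difference of 0.52 ± 0.08 (SE; limma adjusted p = 0.00587) and 5p brighter on 3 of 3 arrays. Within the miR-92 group, named after their values were seen, the arms ran opposite ways: miR-92b had 5p brighter by 1.52 and miR-92a-2 had 5p minus 3p of -1.33. miR-92a-3p is also made by miR-92a-1, so the latter difference does not belong to miR-92a-2 alone. Of the 20 not called, also named after their values were seen, miR-574 differed by 0.01 and miR-210 by -0.02, and miR-423 by -0.22 with 3p brighter on 3 of 3 arrays.

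**Figure D5:**
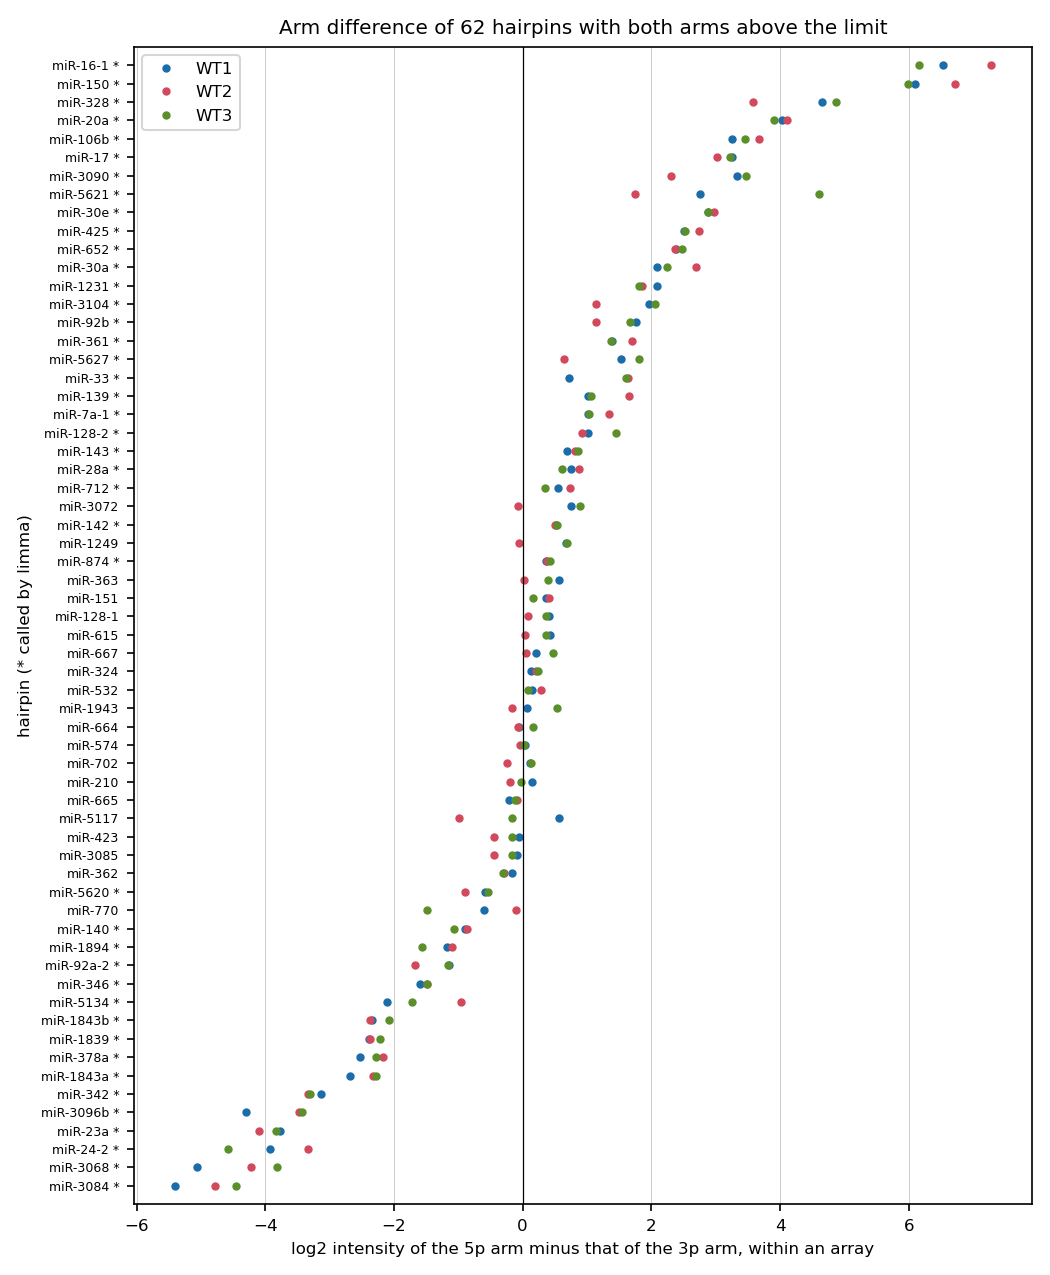
The 62 hairpins with both arms above the limit, ordered by the mean difference; points are the log2 intensity of the 5p arm minus that of the 3p arm on WT1, WT2 and WT3, and an asterisk marks the 42 called by limma. The differences run from 6.66 in miR-16-1 to -4.88 in miR-3084, and the points of all 42 called hairpins lie on 1 side of 0.

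In further hairpins only 1 arm was above the limit: 71 had the 5p arm above it on all 3 arrays and the 3p arm on none, and 52 the reverse. In 192 neither arm was above on any array. For these a fold is a lower bound, the mean of the bright arm over the higher of the dim arm's own level and the lowest level above background. It reached 4-fold in 21 hairpins towards 5p and 16 towards 3p, where a bright arm made by several hairpins counts at each. let-7f-5p was at least 68.8-fold brighter than let-7f-2-3p, miR-26a-5p at least 56.0-fold brighter than either of its 3p arms, let-7a-5p at least 49.1-fold brighter than let-7a-2-3p and miR-29b-3p at least 48.3-fold brighter than either of its 5p arms. These 4 bright arms are each made by more than 1 hairpin, so the folds compare probes and are no bound for a single hairpin. The opposite arm of the other let-7f hairpin, let-7f-1-3p, was above the limit on 2 arrays. Bounds were at least 32.9-fold for miR-191-5p, 30.7-fold for miR-146a-5p and 26.8-fold for miR-21a-5p. In miR-125a the 3p arm was at least 6.08-fold brighter than the 5p arm.

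The spread over arrays was small beside the range of levels. Over the 402 probes the median SD was 0.21; 239 had an SD under 0.25 and 37 an SD over 0.5. It was 0.11 over the dimmest 134, 0.24 over the middle 134 and 0.31 over the brightest 134, and the offset of the background correction narrows the spread of dim probes. Repeated spots give a scale within an array: the 8 spots of each spike control had an SD of 0.07 to 0.12 on the log2 scale.

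The 8 largest SDs were those of miR-5621-5p (1.36), miR-5109 (1.16), miR-3572-5p (1.14), miR-6538 (0.96), miR-6406 (0.87), miR-148a-3p (0.81), miR-494-3p (0.81) and miR-5121 (0.80). miR-5621-5p was at 9.49, 8.76 and 11.39 on WT1, WT2 and WT3, and miR-3572-5p at 7.50, 7.22 and 9.32, both high on WT3. miR-5109 was at 14.07, 12.06 and 14.07 and miR-6538 at 12.38, 10.55 and 11.97, both low on WT2. miR-148a-3p was at 8.49, 7.23 and 6.98, high on WT1, the array on which miR-494-3p was also highest. No single array accounted for all 8.

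The 8 smallest SDs, all at most 0.02, were those of miR-5100, at the shared top rank, and of the dim probes miR-3082-5p, miR-708-5p, miR-5104, miR-691, miR-128-1-5p, miR-1231-3p and miR-295-5p, at levels of 6.16 to 6.92. Among the brightest 134, a set looked at after the values were seen, the steadiest after miR-5100 were miR-680 (8.10 ± 0.03), miR-15b-5p (10.47 ± 0.05), miR-6244 (9.39 ± 0.07), miR-296-5p (8.38 ± 0.07), miR-1843a-3p (8.99 ± 0.09), miR-92a-3p (8.90 ± 0.11) and miR-6236 (9.58 ± 0.11). miR-15b-5p had spot medians of 1371, 1405 and 1508 on WT1, WT2 and WT3, the least variable of the miRNAs in this set with a known role in lymphocytes.

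Some bright miRNAs lie close together in the genome; whether they were transcribed together was not tested. Counts here take the probes matched to RefSeq, of which 318 of 1020 were above the limit on all 3 arrays (31.2%). The groups named were picked from a longer list. Other groups had no probe above, such as miR-182 to miR-183 (0 of 6) and miR-743 to miR-465 on the X chromosome (0 of 29). The 6 hairpins of miR-17~92 lie at chr14:115043671-115044506 on the plus strand, and 8 of their 11 matched probes were above the limit. The miR-23a, miR-27a and miR-24-2 hairpins lie at chr8:84208518-84208921 on the plus strand, with 5 of 6 matched probes above. miR-191 and miR-425 lie at chr9:108568319-108568861 on the plus strand, with 3 of 4 matched probes above. let-7d, let-7f-1 and let-7a-1 lie at chr13:48536012-48538272 on the minus strand, with 3 of 5 matched probes above, all at 11.50 or higher. Within the large Dlk1-Dio3 group on chromosome 12, the 36 hairpins from miR-379 to miR-3072 at chr12:109709060-109747960 had 7 of 67 matched probes above. By contrast the 5 hairpins from miR-500 to miR-532 at chrX:7237683-7248497 on the minus strand had 6 of 9 matched probes above, none over a level of 8, with miR-362-3p the brightest at 7.67. Coordinates are RefSeq's (GRCm38.p6), and a mature miRNA made at several places is counted at each.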

How the data were processed

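RNA of splenic B cells had been hybridised to 9 one-colour miRNA arrays, and the 3 labelled WT were used. The deposited scanner files give the spot intensity as the median pixel value, read at 3 gains per the file headers; the labels and headers do not say how the gains were joined. The deposited background column follows the spot's own brightness (Pearson's r on the log2 scale 0.982, 0.989 and 0.994 on WT1, WT2 and WT3, across probes), so it was subtracted in an alternative alone. The deposited series table holds the authors' log2 values; in it each value stands 5 rows from its probe (Spearman's rho with the scanner values 1 after moving, and as low as 0.144 before), and it was used, moved, as an alternative.

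Intensities were corrected with limma 3.58.1 in R 4.3.3 (normexp, offset 50, foreground alone), taken to log2 and quantile normalized over the 3 arrays. miR-1298-5p, with a quality mark on WT2, counted there as not above the limit. Of the probes, 13 carry more than 1 name. The limit is the 95th percentile of 24 negative control spots, 8 for each of 3 controls. Levels are means over arrays with their SD. Arm differences were tested with limma's lmFit and eBayes. Arrays give no molecule counts, and their number limits precision.

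The members, lists and tests were chosen with earlier results of these data known. Named were the 25 brightest probes, members of the lists, the 10 largest called arm differences each way, the 8 largest and 8 smallest SDs, the 4 probes on each side of the limit, and families with 3 or more members above it. The number split at 1000, the letter runs, the comparison of WT2 with the other arrays and the genomic groups (hairpins within 10000 bases) were chosen after seeing the data. RefSeq tables, of GRCm38.p6, gave sequences and positions.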

Additional observations from a re-analysis of the deposited data

How the results depend on the processing

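Without background correction, with 75th percentile scaling, with quantile normalization over all 9 miRNA arrays and with the authors' values, all 25 brightest probes kept their place among the 25, and 42 to 46 of 62 hairpins were called. Within each array these settings leave the order of probes as it was, so the make-up of the 25 could hardly change. Leaving out each array in turn kept 23 of the 25, gave 40 to 51 called hairpins and put 407 to 433 probes above the limit on both other arrays; miR-5621 lost its call without WT2 (limma adjusted p = 0.0514, in a range over all alternatives of 1.17e-12 to 0.847). The highest negative control as the limit left 370 probes and the mean plus 2 SD of the controls 385. Testing hairpins with at least 1 arm above the limit gave 202 calls (122 with 5p and 80 with 3p brighter, of 234), and no filter gave 233 (140 and 93, of 478), by testing more hairpins. With eBayes set to trend and robust 44 were called. The authors' values gave wider arm differences, 8.73 in miR-16-1 and 7.35 in miR-150; the cause was not tested.

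Use of the files' background values changed the results most. With the deposited background column subtracted, 42 probes were above the limit. With normexp on that column 14 of the 25 stayed among the brightest and 1 hairpin was called, and 5p minus 3p turned sign in 14 of the 20 named hairpins. It was -0.80 in miR-16-1, -0.76 in miR-150, -0.53 in miR-20a, -0.36 in miR-106b, -0.31 in miR-17, -0.13 in miR-5621, -0.15 in miR-425, 0.11 in miR-3068, 0.35 in miR-23a, 0.052 in miR-3096b, 0.15 in miR-1843a, 0.11 in miR-378a, 0.10 in miR-1839 and 0.16 in miR-1843b. The places of 23 named miRNAs moved by more than their SD over arrays with that column. Without WT1 the place of miR-5126 did, and without WT3 those of miR-6240 and miR-26a-5p.

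The lower WT2 values of probes numbered 1000 or higher and the higher ones of the others held relative to all 402 probes without background correction, with both other scalings and with the authors' values, in which WT2 stood at a median of -0.52. With the background column both medians lay near 0 (-0.01 and -0.02). No paired analysis was possible because the arrays form 1 group, and no array of another group entered a comparison. The arm test itself compares probes within each array. Probes near the limit have few units of signal over the controls, and their order carries no weight.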
